A study of Mus musculus with 3 samples.

Results

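The Wnt ligands, the Frizzled receptors and the 5 further Wnt receptor genes Lrp5, Lrp6, Ror1, Ror2 and Ryk were described in RNA of mouse cortical neurons. Members were the protein-coding genes whose symbol starts with Wnt or Fzd followed by a digit, plus those 5 genes. The table held all 34 of them, 19 Wnt, 10 Fzd and 5 co-receptor genes, among 18130 protein-coding genes with a coding transcript. A gene's value is that of its coding transcript with the highest product of mean TPM and annotated exonic length. The samples were 3 libraries of total RNA from wild-type cells with the label CON for treatment, which form 1 group, and their titles give replicates 1 to 3. The study concerns DNA supercoiling and topoisomerases in the neuronal genome. No age, culture time or treated group is given in the sources used here, so the comparisons were between genes inside each library. Nothing says that the libraries came from separate cultures, so the SD over libraries may be technical in part.

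Wnt proteins are secreted, lipid-carrying ligands. They bind the cysteine-rich domain of Frizzled receptors, which cross the membrane, and recruit Lrp5 or Lrp6 to stop the destruction of beta-catenin, a coactivator of TCF and LEF factors. Other branches run through Ror1, Ror2, Ryk and the planar polarity proteins and act on the cytoskeleton. In developing cortex the pathway is known for patterning by the cortical hem, for vessel growth into the brain, for axon guidance and for synapse formation.

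Values are in TPM, a relative abundance corrected for transcript length and library size. The TPM of a library sum over 84660 transcripts that share reads, so values of 1 transcript per gene are lower than on a scale of genes. If nuclear coding genes alone filled the TPM total, values would be multiplied by 4.61, 4.57 and 4.73 in replicates 1, 2 and 3. TPM times length was a whole multiple of 1 constant per library, which gave whole reads for all 34 members. These were 13421, 12456 and 11868 reads of 33406685, 29518187 and 29017779 reads on the coding transcripts used. Of 12 pan-neuronal marker genes 12 reached 1 TPM, with summed levels of 2437, 2502 and 2198 TPM. Of 12 astrocyte markers 11 did, led by Slc1a3 at 184 ± 19.1 TPM (SD, n = 3). Of 12 markers of the oligodendrocyte lineage 8 did (Olig1, 34.4 ± 2.91 TPM), and all 10 of radial glia did (Fabp7, 419 ± 81.4 TPM). Over all coding genes the share was 61.8%, near that of the oligodendrocyte lineage. Mag, Mog and Mobp of that list stood at 0.049, 0.029 and 0.018 TPM. RNA of glial markers was detected beside that of neuronal ones. In such bulk RNA, fewer cells of a type and less RNA per cell cannot be told apart. Endothelial markers summed to between 1.16 and 2.17 TPM, led by Slco1a4 at 0.77 ± 0.37 TPM, and 0 of 9 reached 1 TPM.

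The Wnt genes resemble each other in sequence, and reads can be given to the right member only where they differ. The stretch that encodes the serine carrying the lipid is the one shown, because the translated coding sequence of all 19 members held the surrounding residues (cysteine, histidine, glycine, any residue, serine, glycine) exactly once. The 48 bases are from GENCODE M21 transcripts on GRCm38, 5′ to 3′ in the sense of the gene, with the serine codon in capitals. They belong to the 5 most abundant ligands and to Wnt2, whose codon is of the other kind.
Wnt7b: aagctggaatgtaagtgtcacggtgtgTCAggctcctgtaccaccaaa
Wnt7a: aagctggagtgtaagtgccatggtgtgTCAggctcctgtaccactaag
Wnt4: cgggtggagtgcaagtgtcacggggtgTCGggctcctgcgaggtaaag
Wnt9a: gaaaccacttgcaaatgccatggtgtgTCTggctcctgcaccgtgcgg
Wnt5a: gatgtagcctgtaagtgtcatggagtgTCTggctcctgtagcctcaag
Wnt2: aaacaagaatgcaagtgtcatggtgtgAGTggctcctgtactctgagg
These stretches lie in exon 4 of 4 of Wnt7b (chr15:85537803-85537850, minus strand), exon 4 of 4 of Wnt7a (chr6:91366263-91366310, minus), exon 5 of 5 of Wnt4 (chr4:137296330-137296377, plus), exon 4 of 4 of Wnt9a (chr11:59330911-59330958, plus), exon 5 of 5 of Wnt5a (chr14:28522500-28522547, plus) and exon 4 of 5 of Wnt2 (chr6:18008783-18008830, minus). Against Wnt7b, Wnt7a differed at 5 of these 48 bases, Wnt5a at 13, Wnt2 at 14, Wnt4 at 15 and Wnt9a at 20. Wnt8a was not compared. Among the other 18 Wnt genes the differences reached 23 bases (Wnt6). The serine codon began with TC in 16 of these and was AGT in 2, Wnt2 and its relative Wnt2b.

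In Frizzled receptors the short motif that binds Dishevelled, lysine and threonine followed by any 3 residues and tryptophan, lies just inside the membrane. It was found exactly once in the translated coding sequence of all 10. The 42 bases around it are shown for the most abundant receptor gene, its relative Fzd6 and the next most abundant. The codons of the fixed residues are in capitals.
Fzd3: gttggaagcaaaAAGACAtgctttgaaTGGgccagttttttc
Fzd6: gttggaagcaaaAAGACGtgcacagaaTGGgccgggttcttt
Fzd9: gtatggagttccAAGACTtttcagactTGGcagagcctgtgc
Fzd1: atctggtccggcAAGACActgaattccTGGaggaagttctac
Fzd3 (chr14:65212095-65212136, minus) and Fzd6 (chr15:39033937-39033978, plus) carry it in exon 5 of 7, and Fzd9 (chr5:135249404-135249445, minus) and Fzd1 (chr5:4755694-4755735, minus) in their only exon. Fzd6 differed from Fzd3 at 8 of the 42 bases, Fzd9 at 23 and Fzd1 at 24. In a search of 50-base windows against 22 assembled sequences of the reference genome, a window found at most once counted as unique. Of the 34 members 33 had at least 95% unique windows. Windows absent from the genome, such as those across exon junctions, were among these (63 of 281 for Ryk, 105 of 512 for Lrp5). They were not searched against other transcripts. The exception was Wnt4 at 93.5%. No member shared exon bases with another gene on the same strand. On the opposite strand 4 did: Wnt7b with AU022754 (38 bases), Fzd6 with Gm26704 (152), Wnt11 with Gm8398 (364) and Fzd5 with Gm38058 (1233). The strand setting of the counting is not given in the sources used here, so reads of those bases could come from either gene.

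Of the 34 members, 12 had a mean of at least 1 TPM, the level called expressed here, against 61.8% of all coding genes. They were 5 of 19 Wnt, 4 of 10 Fzd and 3 of 5 co-receptor genes. The median member stood at 0.58 ± 0.05 TPM, below the median of 2.90 ± 0.01 TPM of all coding genes (SD of the medians over 3 libraries). The threshold decides how many Frizzled genes count, since 4 of them lay between 0.5 and 1 TPM. On the scale of nuclear coding genes 20 members reached 1 TPM, 9 Wnt, 8 Fzd and 3 co-receptor genes, against 71.5% of all coding genes.

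**Figure D1:**
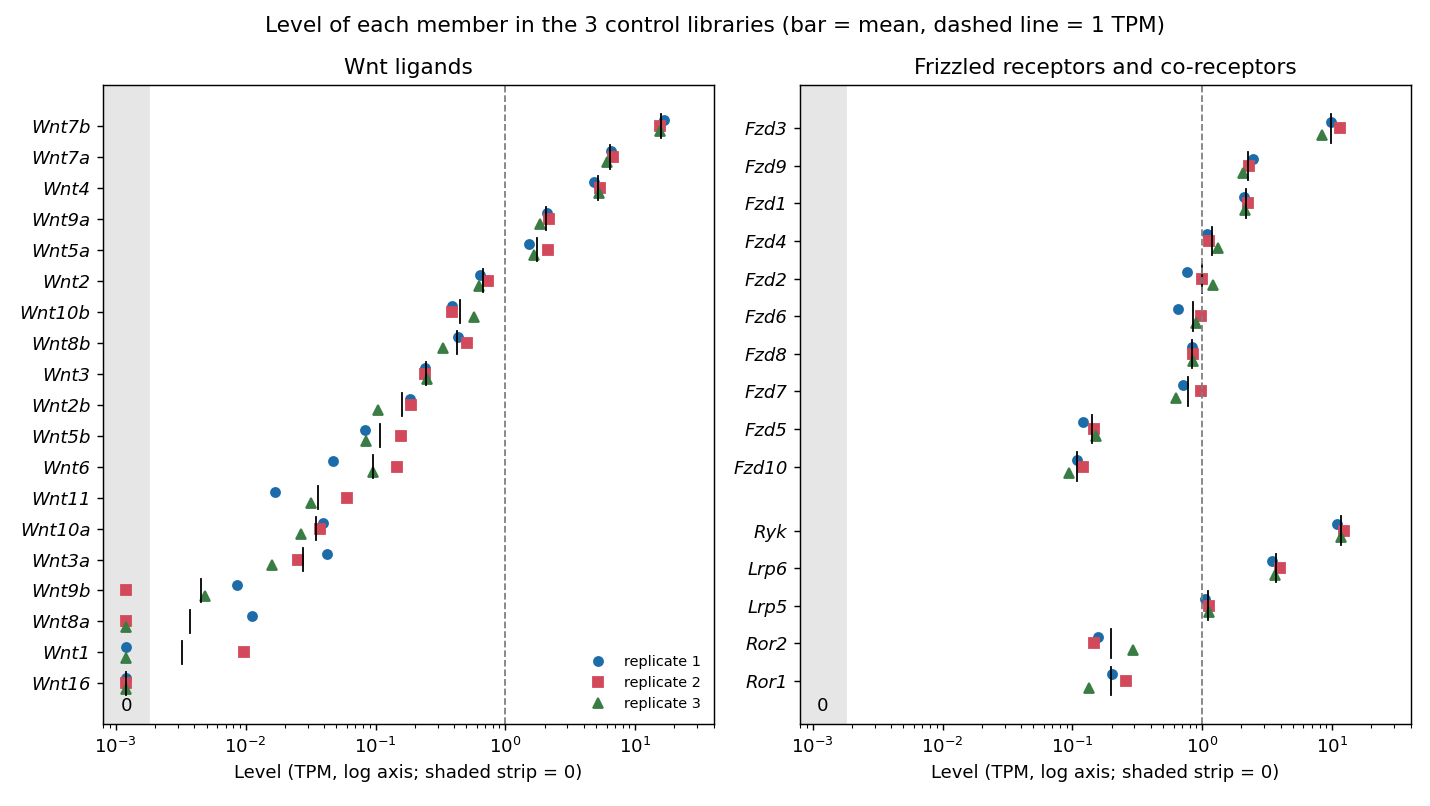
Level of each of the 34 members in TPM on a log axis, Wnt ligands on the left and Frizzled receptors and co-receptors on the right, with 1 point per library, a bar at the mean and a dashed line at 1 TPM. Wnt7b, at 15.9 TPM, is the highest, and values of 0 are drawn in the shaded strip.

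Wnt7b, a ligand made by cortical neurons that acts with Wnt7a in brain vessel growth, had the highest level of the members. It stood at 16.5, 15.6 and 15.4 TPM in replicates 1, 2 and 3 (15.9 ± 0.56, SD, n = 3), from 2850, 2276 and 2378 reads. The 3 libraries lie close together, and the level was above that of 81.8% of coding genes. Its 3 coding transcripts, which share reads and so are not separate measurements, had means from 15.4 to 15.9 TPM. Wnt7b (ENSMUSG00000022382.15) spans 85535437 to 85582473 on chromosome 15 of GRCm38. Wnt7a, known for synapse formation, stood at 6.50, 6.77 and 6.05 TPM (6.44 ± 0.36), from 1056, 928 and 876 reads. Each of its values is below each value of Wnt7b. Wnt7a (ENSMUSG00000030093.7) spans 91363981 to 91411363 on chromosome 6. Together the 2 genes made up 66.6 ± 1.85% of the summed TPM of the 19 Wnt genes, Wnt7b alone 47.4 ± 1.98%.

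Wnt4, best known from kidney and female reproductive tract development, was the third ligand. It stood at 4.82, 5.37 and 5.24 TPM (5.14 ± 0.28), and its order below Wnt7a held in each library. Wnt9a, a ligand of joint development, stood at 2.10, 2.18 and 1.85 TPM (2.05 ± 0.17). Wnt5a, the main ligand of the Ror and Ryk branches, stood at 1.52, 2.11 and 1.66 TPM (1.76 ± 0.31). Replicate 2 was the high library for Wnt5a, and there it nearly met Wnt9a. Wnt9a exceeded Wnt5a by 0.21 ± 0.21 on the log2(TPM + 0.1) scale, with the same order in each library. That order rests on the transcript chosen: the second coding transcript of Wnt5a, which is shorter at 3650 against 7009 bases, stood at 2.39, 3.28 and 2.60 TPM (2.76 ± 0.47). The 5 ligands above 1 TPM held 93.3 ± 0.45% of the family's summed TPM.

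The other 14 Wnt genes stood under 1 TPM. Wnt2 reached 0.67 ± 0.06 TPM, Wnt10b 0.45 ± 0.11, Wnt8b, a gene of the embryonic cortical hem and hippocampus, 0.42 ± 0.09 and Wnt3 0.24 ± 0.0048 TPM. The SD of Wnt3, 1.96% of its mean, lay below the 16.9% that counting its 38, 32 and 35 reads would give. It overstates the precision of that level. Wnt10b and Wnt8b changed places between libraries, at 0.39, 0.38 and 0.57 TPM against 0.43, 0.51 and 0.33 TPM, so their order is not resolved. Wnt2b stood at 0.16 ± 0.05 TPM and Wnt5b at 0.11 ± 0.04 TPM. Wnt6 had 5, 13 and 9 reads, Wnt11, a ligand of cell movements in gastrulation, 3, 9 and 5, Wnt10a 5, 4 and 3, and Wnt3a, which the cortical hem needs to make the hippocampus, 6, 3 and 2. Such counts leave the order among these genes open to counting error, and 7 of the 18 pairs of neighbours in the Wnt ranking did not keep 1 order in the 3 libraries.

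At the bottom, 4 Wnt genes had at most 3 reads in each library. Wnt9b had 2, 0 and 1 reads, Wnt8a 1, 0 and 0, and Wnt1, the midbrain ligand, 0, 1 and 0. Wnt16 had no read, and in its case a count of 0 allows up to 3 reads, or 0.035, 0.042 and 0.039 TPM in replicates 1, 2 and 3. These limits cover counting error only.

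Among the receptors, Fzd3, which guides axons and sets planar polarity in neurons, stood apart from the other Frizzled genes. It stood at 9.70, 11.5 and 8.32 TPM (9.84 ± 1.59), from 2066, 2066 and 1580 reads. Replicate 2 was high and replicate 3 low, and each value is above every value of the other 9 receptors. Fzd3 (ENSMUSG00000007989.7) spans 65192449 to 65262463 on chromosome 14 and held 51.3 ± 3.67% of the family's summed TPM. Its deposited transcript ends earlier than in the newer annotation and covers 4157 bases. A non-coding Fzd3 transcript of 426 bases gave a like value of 10.5 ± 1.51 TPM. It lies within the span of the coding transcript and can share its reads, so it is not a separate measurement.

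Fzd9, a receptor of hippocampal neurons and progenitors, stood at 2.44, 2.28 and 2.05 TPM (2.26 ± 0.20). Fzd1, a receptor at synapses, stood at 2.09, 2.24 and 2.14 TPM (2.16 ± 0.07). The 2 genes changed order in replicate 3, and their difference of 0.06 ± 0.14 log2 units is within the spread. Fzd4, the receptor of Norrin in retinal vessels, followed at 1.09, 1.13 and 1.32 TPM (1.18 ± 0.12). It was the only expressed member that was highest in replicate 3.

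A cluster of 4 Frizzled genes lay just under 1 TPM. Fzd2 stood at 0.76, 0.998 and 1.20 TPM (0.99 ± 0.22) and exceeded 1 TPM in replicate 3 only. Fzd6 stood at 0.65, 0.97 and 0.90 TPM (0.84 ± 0.17), Fzd8, a gene of the early neocortex, at 0.84 ± 0.0091 TPM, and Fzd7 at 0.71, 0.97 and 0.62 TPM (0.77 ± 0.18). Fzd6, Fzd8 and Fzd7 changed places between libraries, and no order among them is resolved. Fzd5, needed in eye development, and Fzd10 were lowest at 0.14 ± 0.02 and 0.11 ± 0.01 TPM, yet each had more than 10 reads in each library.

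Ryk, an atypical receptor kinase that mediates axon repulsion by Wnt5a, was the second highest member of all. It stood at 10.97, 12.4 and 11.7 TPM (11.7 ± 0.71), from 1603, 1527 and 1528 reads. Ryk (ENSMUSG00000032547.12) spans 102834917 to 102908305 on chromosome 9. Lrp6, the co-receptor that relays the signal to beta-catenin, stood at 3.45, 3.93 and 3.62 TPM (3.67 ± 0.24). Lrp5, its relative known from bone, stood at 1.05, 1.12 and 1.12 TPM (1.10 ± 0.04). The order of Ryk, Lrp6 and Lrp5 held in each library without overlap.

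The kinase-domain receptors Ror1 and Ror2 were the lowest co-receptors. Ror1 stood at 0.20, 0.26 and 0.13 TPM (0.20 ± 0.06) and Ror2 at 0.16, 0.15 and 0.29 TPM (0.20 ± 0.08). Ror1 was higher in replicates 1 and 2, and Ror2 in replicate 3, from 35 and 53 reads there. Their means do not differ beyond the spread. Markers of the oligodendrocyte lineage were also highest in replicate 3, with summed levels of 74.5, 56.4 and 91.7 TPM, and their part in the values of Ror2 was not tested.

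The 2 families differed in the median and in the sum in opposite directions. The median Fzd gene exceeded the median Wnt gene by 1.65, 1.92 and 2.48 log2 units (2.01 ± 0.43, n = 3) on the log2(TPM + 0.1) scale. The summed level was higher for the 19 Wnt genes, at 33.5 ± 1.08 TPM, than for the 10 Fzd genes, at 19.1 ± 1.86 TPM. Family size enters these sums, so they do not show a higher level per Wnt gene. Among members of at least 1 TPM the median difference turned, to -1.18. Under 1 TPM stood 14 of 19 Wnt genes and 6 of 10 Fzd genes, and with a pseudocount of 1 TPM the median difference was 0.74.

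Genes were then set against a relative in sequence inside each library, in 15 listed pairs. Wnt1, Wnt4, Wnt6, Wnt11, Wnt16, Fzd4 and Ryk were in no pair. Identity was measured only inside the pairs, so it was not shown that a partner is the closest member. Differences are on the log2(TPM + 0.1) scale, while folds are ratios of TPM with nothing added, so for low genes the difference understates the fold. In 14 pairs the same gene was higher in the 3 libraries, and in 13 the difference exceeded 1 log2 unit. With 3 libraries the smallest p of the two-sided exact sign-flip permutation test is 0.25, which those 14 pairs had (0.268 after Benjamini-Hochberg adjustment over 15 pairs), so no pair could pass 0.05.

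**Figure D2:**
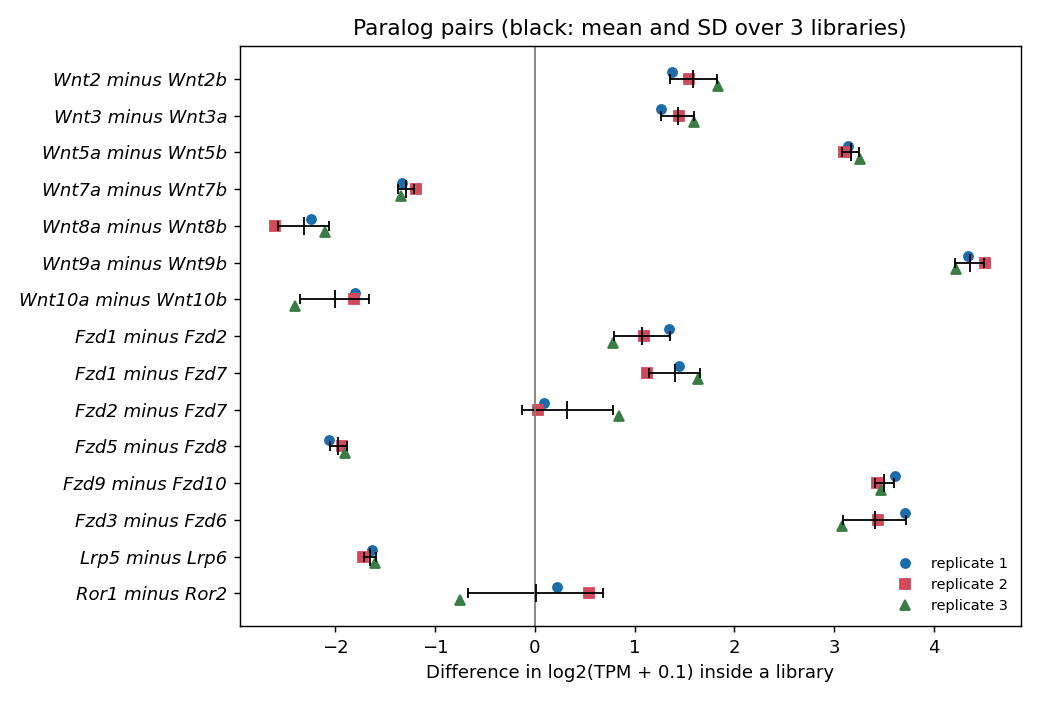
Difference in log2(TPM + 0.1) between the genes of 15 paralog pairs, with 1 point per library and the mean and SD in black. Points right of 0 mean that the gene named before the word minus was higher; the points of Ror1 and Ror2 lie on both sides of 0.

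Among ligands, the high gene was 7b of the Wnt7 pair and 5a of the Wnt5 pair. The TPM of Wnt7b was 2.47 ± 0.14-fold that of Wnt7a, with a difference of 1.29 ± 0.08 on the log2(TPM + 0.1) scale, and their coding sequences are 75.5% identical. The size of this difference rests on the use of 1 transcript per gene: with all coding transcripts summed, which counts shared reads repeatedly, Wnt7b stood at 46.9 TPM and Wnt7a minus Wnt7b was -2.85 on that scale. The TPM of Wnt5a was 17.1 ± 3.34-fold that of Wnt5b, with a difference of 3.16 ± 0.08 on the log2(TPM + 0.1) scale (3.10 with transcripts summed) and an identity of 75.5%. The direction was the same in both pairs under either choice, but for the Wnt7 pair summing could only widen the difference. Wnt2 had 4.48 ± 1.39-fold the TPM of Wnt2b, with a difference of 1.59 ± 0.24 on the log2(TPM + 0.1) scale. Wnt3 had 10.3 ± 5.05-fold the TPM of Wnt3a, with a difference of 1.43 ± 0.17 on that scale (2.81 with 0.01 TPM added). Wnt10b had 13.8 ± 6.60-fold the TPM of Wnt10a, and Wnt10a minus Wnt10b was -2.01 ± 0.34 on that scale (-3.35 with 0.01 TPM added). For these last pairs the amount added sets much of the difference. Wnt3 and Wnt3a were the most alike of the 15 pairs in coding sequence, with 77.3% identity.

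For the pairs with very few reads on 1 side, the ratio of reads per length over the 3 libraries is given with its exact 95% binomial interval, for counting error only. Wnt9a exceeded Wnt9b 432-fold (147 to 2098), from 952 against 3 reads. Wnt8b exceeded Wnt8a 103-fold (18.3 to 4085), from 199 against 1 read. Both intervals are wide on the upper side, where the count of the low gene sets them.

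Among receptors, Fzd3 had 12.01 ± 2.81-fold the TPM of Fzd6, with a difference of 3.41 ± 0.31 on the log2(TPM + 0.1) scale, and this pair had the lowest coding identity of the 15, 58.4%. Fzd9 had 21.1 ± 1.97-fold the TPM of Fzd10, with a difference of 3.50 ± 0.10 on the log2(TPM + 0.1) scale. Fzd8 had 6.04 ± 0.69-fold the TPM of Fzd5, and Fzd5 minus Fzd8 was -1.97 ± 0.09 on that scale. In the trio of Fzd1, Fzd2 and Fzd7, Fzd1 was highest, 2.26 ± 0.48-fold above Fzd2 and 2.90 ± 0.57-fold above Fzd7. Fzd2 and Fzd7, with 76.8% identity the most alike Frizzled genes of those paired, differed by 0.32 ± 0.45 on the log2(TPM + 0.1) scale, within the spread. Lrp6 had 3.34 ± 0.14-fold the TPM of Lrp5, and Lrp5 minus Lrp6 was -1.65 ± 0.06 on that scale. Ror1 minus Ror2 came to 0.006 ± 0.67 on that scale (two-sided exact sign-flip permutation p = 1, n = 3).

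The spread between libraries was read against the spread that counting reads alone would give. Of the 12 expressed members, 10 had an SD over libraries above their counting error, against 87.6% of expressed coding genes with whole reads. Their median SD was 6.35% of the mean, and that of those coding genes 7.87%. Fzd3 had the largest excess, with an SD of 16.2% of the mean, 7.06 times its counting error of 2.29%. Wnt5a followed at 17.5%, 4.20 times its counting error. At the other end Lrp5 (4.06%) and Fzd1 (3.42%) lay below their counting errors of 6.16% and 4.89%, and so did Fzd8 at 1.08% against 8.76%. Without replicate 3 the level of Fzd3 would be 10.6 TPM, and without replicate 2 that of Wnt5a 1.59 TPM.

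**Figure D3:**
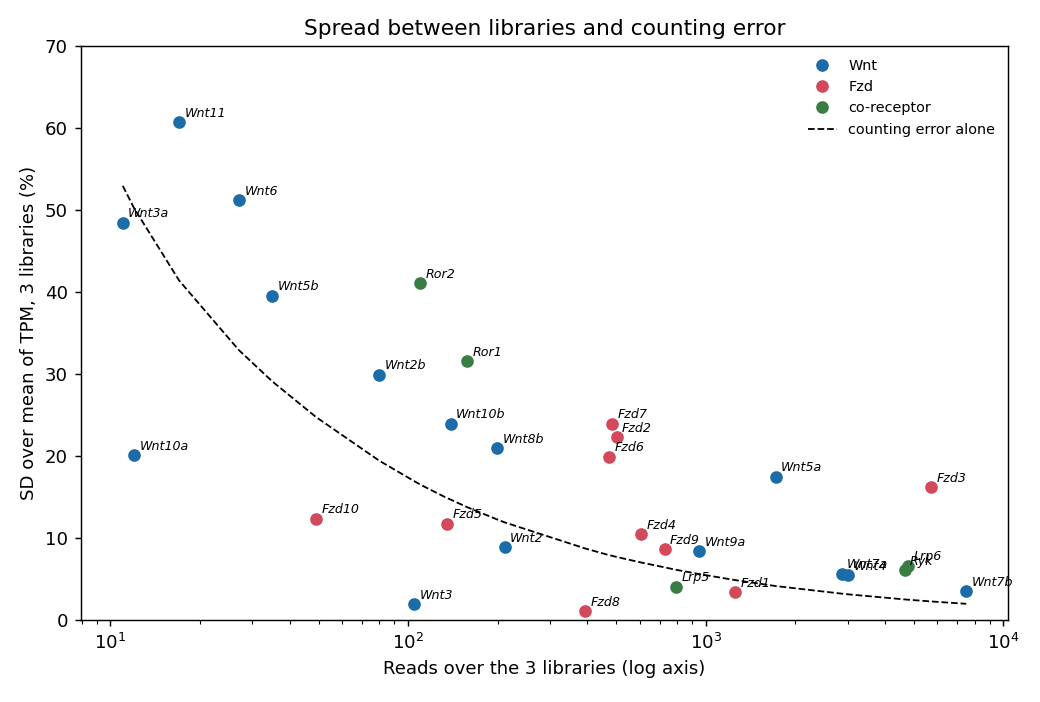
SD over mean of TPM (percent) in the 3 libraries against the reads of each member over the 3 libraries on a log axis, for members with more than 3 reads. The dashed line is the counting error, and Fzd3 lies farthest above it in proportion, at 16.2% against 2.29%.

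Of the 12 expressed members, 9 were highest in replicate 2, against 40.4% of expressed coding genes. These were Wnt7a, Wnt4, Wnt9a, Wnt5a, Fzd3, Fzd1, Ryk, Lrp6 and Lrp5. In replicate 1, 2 were highest, Wnt7b and Fzd9 (28.2% of expressed coding genes), and in replicate 3, 1, Fzd4 (31.4%). Lowest in replicate 3 were 5 (41.0% of expressed coding genes), Wnt7b, Wnt7a, Wnt9a, Fzd3 and Fzd9. The other 7 were lowest in replicate 1 (33.6%), and 0 in replicate 2 (25.4%). Of 12 pan-neuronal markers, 11 were lowest in replicate 3, and the part of that shift in these values was not tested. The count in replicate 3 depends on the scale and on which members reach 1 TPM. Rescaled to nuclear coding genes, 7 of 20 members were highest there, against 41.1% of coding genes. Fzd2, Fzd8, Wnt10b and Wnt3, which reached 1 TPM only after rescaling, were highest there before it too. Counts for the other replicates were not made on that scale, so how far that of replicate 2 depends on it is not known.

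Reference promoters from RefSeq (GRCm38.p6, 250 bases before to 50 after the start) matched 24 of the 34 members. The members' promoters were dense in CpG dinucleotides, with a median of 32 in 300 bases and a range of 6 to 58, against a median of 7 over 32851 promoters of genes of all kinds. Those were not limited to coding genes or to 1 promoter per gene, so whether the members differ from other coding genes was not tested. Low members had many CpG too: the median was 42 for the 7 matched members of at least 1 TPM and 29 for the 17 under it. The promoters of 3 members are shown up to the start, 5′ to 3′ in the sense of the gene with each CpG in capitals, to set an expressed ligand beside a ligand with few reads and 1 without a read.
Wnt7a: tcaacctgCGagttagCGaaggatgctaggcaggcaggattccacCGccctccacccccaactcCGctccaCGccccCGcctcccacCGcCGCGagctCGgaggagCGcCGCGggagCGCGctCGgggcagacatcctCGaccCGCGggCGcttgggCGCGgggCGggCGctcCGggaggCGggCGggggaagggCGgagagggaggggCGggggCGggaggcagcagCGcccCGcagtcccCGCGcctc
Wnt3a: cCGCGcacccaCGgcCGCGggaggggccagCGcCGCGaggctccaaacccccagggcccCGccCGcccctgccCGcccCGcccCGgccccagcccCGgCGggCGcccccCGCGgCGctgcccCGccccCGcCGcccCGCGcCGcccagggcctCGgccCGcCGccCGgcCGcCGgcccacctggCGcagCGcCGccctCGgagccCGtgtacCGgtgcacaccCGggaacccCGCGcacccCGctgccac
Wnt16: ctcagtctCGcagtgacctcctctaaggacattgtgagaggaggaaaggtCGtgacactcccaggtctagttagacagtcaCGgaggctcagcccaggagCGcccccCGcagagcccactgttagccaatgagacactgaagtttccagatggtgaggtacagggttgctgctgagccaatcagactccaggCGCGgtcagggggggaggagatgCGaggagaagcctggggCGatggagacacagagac
The stretches lie at chr6:91411354-91411603 on the minus strand (Wnt7a, 34 CpG in 250 bases), chr11:59290752-59291001 on the minus strand (Wnt3a, 41) and chr6:22287977-22288226 on the plus strand (Wnt16, 9). Wnt3a, with 11 reads over the 3 libraries, had more CpG than Wnt7a with 2860. The core of TCF and LEF sites, CTTTGA or TCAAAG on the other strand, occurred in 3 of 24 windows of 300 bases (12.5%), those of Fzd1, Ror1 and Wnt11, against 16.0% of all promoters. A match is not a bound site, and 10 members had no window.

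The other genes of the pathway were taken from 8 lists drawn up from textbook knowledge. Of their 109 genes 107 were measured, and 78 of these (72.9%) reached 1 TPM, against 61.8% of coding genes and 12 of the 34 members. The medians of 4 lists, those for secretion, for Dishevelled and the destruction complex, for nuclear effectors and for planar polarity, lay between 7.09 and 13.9 TPM. They stood above the medians of the Wnt genes (0.16 ± 0.05 TPM), the Fzd genes (0.94 ± 0.13 TPM) and the co-receptor genes (1.10 ± 0.04 TPM), while the median of the target genes, 0.70 ± 0.03 TPM, did not exceed that of the Fzd or co-receptor genes.

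**Figure D4:**
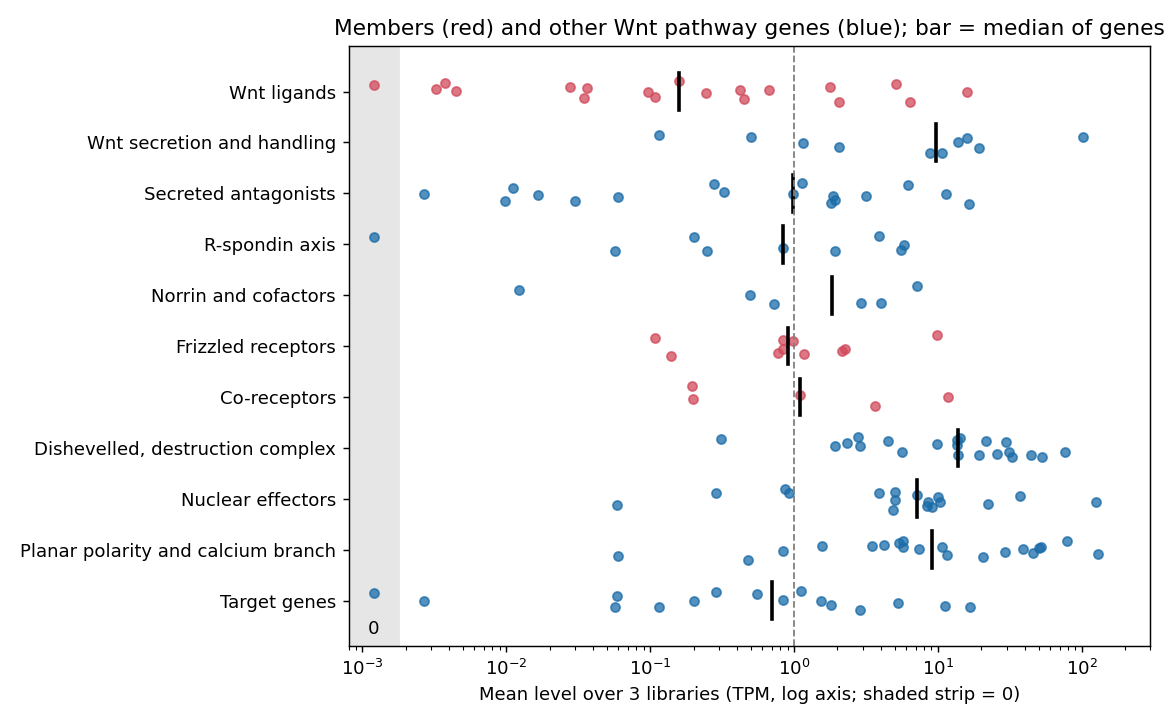
Mean level over 3 libraries in TPM on a log axis for each member (red) and each gene of 8 pathway lists (blue), with a bar at the median gene. The Wnt ligands have the lowest median, and values of 0 are drawn in the shaded strip.

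For secretion and handling of the ligands, 8 of 10 genes reached 1 TPM, with a list median of 9.73 ± 0.93 TPM. Vps35, of the complex that recycles the Wnt carrier, stood at 102 ± 3.23 TPM, the sulfatase Sulf2 at 19.1 ± 1.82 TPM and Porcn, the enzyme that attaches the lipid, at 15.8 ± 0.88 TPM. Notum, which removes the lipid, was lowest at 0.12 ± 0.05 TPM. Of 17 secreted antagonists and their receptors, 8 reached 1 TPM (median 0.95 ± 0.01). Sfrp1, a decoy for Wnt proteins, stood at 12.2, 15.6 and 21.5 TPM (16.4 ± 4.73), Dkk3 at 11.4 ± 1.19 and Igfbp4 at 6.23 ± 0.34 TPM. Sfrp1 was highest in replicate 3, where astrocyte markers also had their highest sum (472, 502 and 561 TPM). Of the 11 expressed astrocyte markers 6 were highest there and 4 lowest, and their part was not tested. Dkk1, the classical inhibitor of Lrp5 and Lrp6, was lowest at 0.0027 ± 0.0046 TPM.

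R-spondins raise Wnt signals by protecting Frizzled receptors from the ligases Znrf3 and Rnf43. Of 9 genes of this axis 4 reached 1 TPM (median 0.84 ± 0.10): Lgr4 at 5.84 ± 0.58, Rspo3 at 5.57 ± 0.65, Rspo2 at 3.86 ± 0.24 and Rspo1 at 1.93 ± 0.28 TPM, with Rspo4 listed at 0 in each library. Of 6 genes for Norrin and receptor cofactors 3 did (median 1.83 ± 0.11), Tspan12 at 7.11 ± 0.67, the Fzd4 ligand gene Ndp at 4.003 ± 0.316 and Ptk7 at 2.93 ± 0.20 TPM, with Musk at 0.012 ± 0.010 TPM. Ndp thus stood above its receptor gene Fzd4 in each library (4.35, 3.94 and 3.73 TPM against 1.09, 1.13 and 1.32 TPM).

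Downstream, 20 of 21 genes for Dishevelled and the destruction complex reached 1 TPM (median 13.9 ± 1.12). Csnk1a1, the kinase that primes beta-catenin, stood at 76.8 ± 3.50, the scaffold Apc at 53.1 ± 5.21 and Gsk3a at 44.5 ± 0.98 TPM, with Frat1 lowest at 0.31 ± 0.07 TPM. Of 17 nuclear effector genes 13 did (median 7.09 ± 1.27), led by Ctnnb1, which encodes beta-catenin, at 125 ± 6.47, Ctbp1 at 37.1 ± 1.15 and Ctnnbip1 at 22.4 ± 3.22 TPM. The 4 DNA-binding partners were the 4 lowest genes of that list with the transcripts used, with Tcf7l1 at 0.92 ± 0.16, Tcf7l2 at 0.86 ± 0.13, Tcf7 at 0.29 ± 0.02 and Lef1 at 0.059 ± 0.015 TPM. Tcf7l1 and Tcf7l2 reached 1 TPM with the coding transcript of highest TPM (1.22 ± 0.19 and 1.18 ± 0.36 TPM) and with transcripts summed (3.21 ± 0.60 and 10.6 ± 1.74 TPM), which made 15 of 17, while Tcf7 and Lef1 stayed below it under both. Tcf7l1, Tcf7l2 and Tcf7 were named after their values were seen.

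Of 20 planar polarity and calcium branch genes 17 reached 1 TPM (median 8.87 ± 0.58), led by Camk2a at 130 ± 4.27, Rac1 at 78.9 ± 2.58 and Mapk10 at 51.8 ± 4.84 TPM, with Nfatc4 at 0.060 ± 0.027 TPM. These leading genes are abundant in neurons for other functions too. Of 16 widely used beta-catenin target genes 7 did (median 0.70 ± 0.03), the receptor Tnfrsf19 at 16.8 ± 0.66, Ccnd1 at 11.2 ± 0.80 and Myc at 5.24 ± 0.86 TPM, with Sp5 listed at 0 in each library. Axin2, the feedback scaffold most often used as a readout of the pathway and named after its value was seen, stood at 2.63, 2.90 and 3.13 TPM (2.89 ± 0.25). Of the 7 expressed target genes 6 were highest in replicate 3, against 31.4% of expressed coding genes. In that library 6 of the 8 expressed markers of the oligodendrocyte lineage were also highest and 11 of 12 pan-neuronal markers were lowest. The astrocyte markers had their highest sum there, though of 11 expressed ones 6 were highest and 4 lowest. Radial glia markers had their lowest sum there (610, 535 and 449 TPM in replicates 1, 2 and 3). The part of these cell types was not tested. Some genes stand on 2 lists and were counted in both.

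For markers of the cortical hem and choroid plexus 5 of 10 genes reached 1 TPM, against 61.8% of all coding genes, led by Ttr at 7.59 ± 2.71 TPM. For Cajal-Retzius cells 3 of 8 did, led by Calb2 at 17.0 ± 0.32 TPM, which interneurons also express. The median of that list was only 0.10 ± 0.02 TPM. Of pericyte and fibroblast markers 4 of 10 did, led by Acta2 at 3.07 ± 0.85 TPM. Their part in the values of single ligands was not tested.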

How the data were processed

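Total RNA of wild-type mouse cortical neurons with the treatment label CON was sequenced in 3 libraries, per the labels' protocols with KAPA RNA HyperPrep kits. The submitters' processing notes name the build mm10 and, in no stated order, Subread 1.4.6, featureCounts, FastQC 0.11.2 and STAR 2.5.3a. The table deposited by the authors lists TPM per transcript (84660 rows, GENCODE M4 according to its file name), with 1 column per library.

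Transcripts were matched without version to GENCODE release M21 (GRCm38, the same build), and 98.1% of rows matched. For reads, lengths followed the annotation for 26 members and the deposited span for 7. Elsewhere a span without whole reads went back to the annotated length. For Wnt7b the nearest length with whole reads (within 0.01 of a read) was used. The report gives the reads per library, and small counts limit the precision of low genes.

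Levels are mean and SD over 3 libraries. Differences inside a library used log2(TPM + 0.1), which understates differences of low genes, tested over 15 pairs by exact sign flips (a two-sided permutation test). Every member was named, and of each other list the 3 highest and the lowest gene, of marker lists the highest; 1 marker list is not reported here. The members and lists were chosen with earlier results of these data known. Protein sequences were not used here, and the planned protein comparison was replaced by coding sequence, a choice made after seeing the data, as were the promoter and window searches; sequences were aligned globally, with identity over all columns including gaps. Alternatives were pseudocounts of 1 and 0.01, minima of 0.5 and 2 TPM, summed coding transcripts, the transcript of highest TPM, rescaling, members of at least 1 TPM only and leaving out each replicate. Methods were tested on simulated data. Python 3.11.15, numpy 2.4.6, pandas 2.3.3, scipy 1.17.1, biopython 1.88 and matplotlib 3.10.9 were used.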

Additional observations from a re-analysis of the deposited data

How the results depend on the processing

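Of the 15 paralog pairs, 14 kept their direction under each alternative run. These 14 had 1 sign in the 3 libraries, so another pseudocount or a left-out replicate could not reverse them. Only summed coding transcripts and the transcript of highest TPM could have done so, and only where the lower gene has several coding transcripts. Such lower genes were Wnt5b, Wnt10a, Fzd5, Fzd6 and Lrp5. In the rest of these pairs the kept direction was fixed by construction and shows no stability. Ror1 minus Ror2, 0.006 in the report, became -0.74 with summed coding transcripts, -0.045 with the transcript of highest TPM and -0.00045 with a pseudocount of 1, and ran from -0.26 to 0.38 when 1 replicate was left out. The Fzd minus Wnt median was 0.74 with a pseudocount of 1, 2.52 with 0.01 and -1.18 when genes under 1 TPM were left out, which leaves fewer genes. Rescaling to nuclear coding genes raised the expressed Wnt genes to 9 and the Fzd genes to 8, and a minimum of 0.5 TPM gave 8 Fzd genes. The members highest in replicate 3 numbered 3 at a minimum of 0.5 TPM, 0 at 2 TPM, 2 with summed transcripts and 7 after rescaling, against 1. The cause of these shifts was not tested beyond the construction of each alternative. The total of expressed pathway genes stayed within 1.5 times its value, but a minimum of 2 TPM left 4 secreted antagonists (from 8) and 4 target genes (from 7), and rescaling gave 5 Norrin and cofactor genes (from 3). Of the 34 members' levels 13 moved beyond their SD with summed transcripts (Wnt7b to 46.9 TPM, Ryk to 23.7 TPM) and 3 with the transcript of highest TPM. Rescaling moved 33, all but Wnt16 at 0, and leaving out a replicate moved 0. Those last counts were fixed by construction and show no stability. Rescaling moves every level above 0 beyond its SD, and a mean without 1 of 3 libraries always stays within the SD. Depth limits the order of ligands with under about 20 reads per library.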
